A study of Homo sapiens with 16 samples.

Results

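Liver gene loci with MED1 peaks are the peaks of 6 deposited MED1 lists that overlap 9 windows of hg19 around ALB, FGB, SERPINA1, APOA4 to APOA1, APOA2, APOE, HP, H19 and IGF2. The windows cover 220 kb together and were chosen from measured values, that is, from peaks seen in these same lists. They held 52 of 3464 listed peaks, which merged into 15 of 1584 regions. Because presence and strength in the lists led to the choice, every count below is a description and none was tested.

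MED1 ChIP-seq was made from HCT116 cells, a human colorectal carcinoma line, in 16 samples, 8 with MED1 antibody and 8 inputs. WT HCT116 cells received DMSO as a mock or Nutlin-3a, each for 1 h. Nutlin-3a keeps MDM2 from binding p53 and so induces p53 signalling. The CRISPR/Cas9-edited line, of genotype OsTir1+/-;Med14-AID+/+, carries a degron on both copies of MED14, a core Mediator subunit, and the plant protein OsTIR1, which marks the degron for destruction when auxin is present. It received water or 500 µM auxin (IAA) for 3 h, with or without Nutlin-3a for 1 h afterwards. All 4 of its conditions share the degron and OsTIR1, and whether the line is 1 clone is not given in the sources used here. Each WT list joins 2 MED1 libraries and each MED14-AID list comes from 1, so no spread between replicates can be set beside any count. A signal from 1 of both WT libraries cannot be told apart from a signal in both. The number of reads behind a list is unknown, and the lists held between 53 and 1254 peaks.

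Mediator bridges transcription factors at enhancers and promoters to RNA polymerase II, and MED1 is a subunit often used to mark its place on chromatin. Most of the 10 genes are the classical secretory genes of hepatocytes, where the factors HNF1, HNF4A, FOXA and C/EBP bind their promoters and enhancers and their messages are among the most abundant of the cell. They are not all particular to liver: APOA1 and APOA4 are also made by enterocytes of the small intestine, APOE by macrophages and astrocytes, and H19 and IGF2 are imprinted genes of many fetal tissues. In colon carcinoma cells the albumin gene is ordinarily regarded as silent, but expression of the 10 genes was not measured here.

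The promoters were searched for exact strings of letters taken from sites of such liver factors, and most held none of these strings. RefSeq promoters (GRCh38.p14) were at hand for 7 of the 10 genes, as 11 start sites. The 250 bases before each start were searched on both strands for TGTTTAC (FOXA), CAAAGTCCA (HNF4A), GTTAATNAT (HNF1), TTGCGCAA and TTGCAA (C/EBP), TGACTCA (AP-1) and TATAAA, the core of the TATA box. The letters TTGCGCAA and TTGCAA do not contain one another. The HNF1 letters were in 1 of the 11, ALB, and in 0.723% of all 35116 promoters. The FOXA letters were in 1 of the 11, APOA2, and in 2.98% of all. The other 5 were in none of the 11. Among all promoters they were in 0.325% (HNF4A), 0.131% and 4.73% (C/EBP, long and short), 4.20% (AP-1) and 10.7% (TATA box). The pair with a match reads as follows, 5′ to 3′ on the gene's strand, ending at the base before the start, with the match in capitals. ALB is on the plus strand of chromosome 4, and its match lies 61 to 53 bases before the start. APOA2 is on the minus strand of chromosome 1, and its match, on the opposite strand of the gene, lies 42 to 36 bases before the start.
ALB: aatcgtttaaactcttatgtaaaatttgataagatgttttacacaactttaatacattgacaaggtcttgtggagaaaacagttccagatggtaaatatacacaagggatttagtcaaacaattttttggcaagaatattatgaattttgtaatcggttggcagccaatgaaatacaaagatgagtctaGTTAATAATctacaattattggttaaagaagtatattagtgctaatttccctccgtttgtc
APOA2: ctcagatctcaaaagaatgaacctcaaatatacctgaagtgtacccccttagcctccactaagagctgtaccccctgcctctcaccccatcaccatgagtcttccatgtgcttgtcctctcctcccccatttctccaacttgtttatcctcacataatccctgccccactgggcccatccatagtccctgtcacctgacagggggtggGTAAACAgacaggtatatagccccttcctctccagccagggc
A match is a description of letters and not a bound site. Near matches were not counted, so a promoter without a match can still hold a site. FGB (opposite strand) and SERPINA1 (gene strand), for example, hold GTTAATATT, which differs from the HNF1 letters at 1 base. How many of all promoters hold that variant was not counted. The peak positions below are hg19, so no peak was placed against these starts, and whether a peak lies over an exon, an intron or a promoter was not analysed here.

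The 9 windows held peaks in 4 lists in large part, in 1 list barely and in 1 list not at all. In WT cells with Nutlin-3a all 9 windows and all 15 regions held a peak. In WT cells with DMSO only the IGF2 window did, at 1 region. In MED14-AID cells 6 windows and 9 regions held a peak with water, 9 windows and 13 regions with water and Nutlin-3a, and 8 windows and 11 regions with auxin. With auxin and Nutlin-3a none of the 9 windows held a peak. More cells with MED1 at these loci and more MED1 per cell cannot be told apart in such lists.

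**Figure D1:**
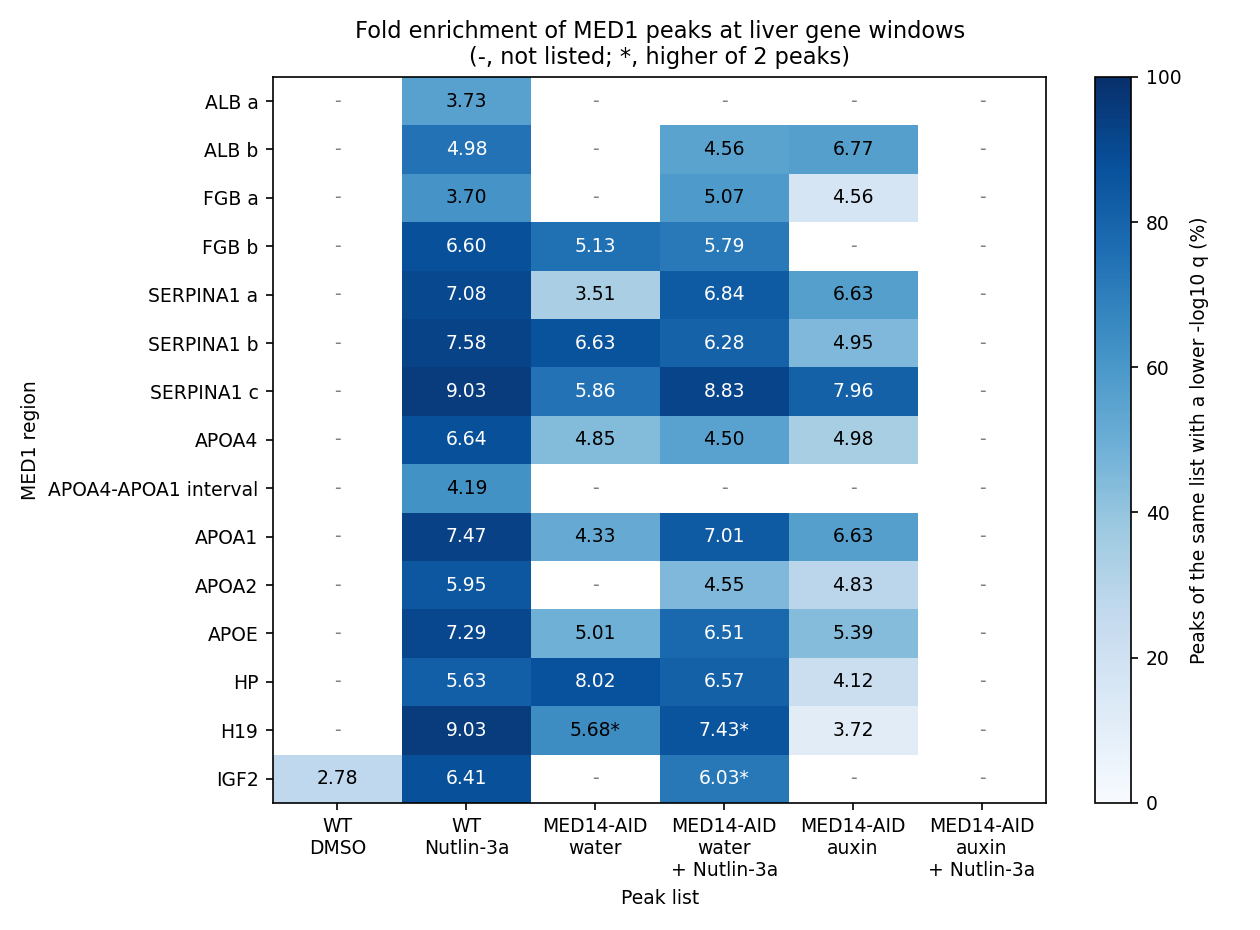
Fold enrichment over background as the authors' peak caller gave it (numbers) for 15 MED1 regions (rows) in 6 peak lists (columns); the colour is the percent of peaks in the same list with a lower −log10 q, a dash marks a region that is not listed, and a star marks the higher of 2 peaks. WT Nutlin-3a fills all 15 rows with folds of 3.70 to 9.03, while WT DMSO fills 1 row and auxin with Nutlin-3a fills none.

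The folds that follow are those of the authors' caller, used to describe a peak within its list; they are given side by side between lists and not compared. ALB, which encodes the main carrier protein of plasma, had 2 regions. The region on chromosome 4, 74283402 to 74283977 (ALB b), had a fold of 4.98 in WT Nutlin-3a, 4.56 with water and Nutlin-3a, and 6.77 with auxin. It was not listed in WT DMSO, with water, or with auxin and Nutlin-3a. The other, 74278769 to 74279274 (ALB a), was listed in WT Nutlin-3a alone, with a fold of 3.73.

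FGB encodes the beta chain of fibrinogen, the precursor of the fibrin clot. Its region on chromosome 4, 155490246 to 155490838 (FGB a), had folds of 3.70 in WT Nutlin-3a, 5.07 with water and Nutlin-3a and 4.56 with auxin. The second, 155491177 to 155492116 (FGB b), had folds of 6.60 in WT Nutlin-3a, 5.13 with water, and 5.79 where Nutlin-3a followed water. The water list thus held only the second and the auxin list only the first of this pair. Both lists with Nutlin-3a and without auxin held both. The regions of the pair lie less than 1 kb apart. When peaks up to 1 kb apart counted as overlapping, the water peak here did overlap an auxin peak.

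SERPINA1 encodes alpha-1 antitrypsin, the plasma inhibitor of neutrophil elastase, and was the only window with 3 regions that recurred in 4 lists. On chromosome 14 they spanned 94844744 to 94845414 (SERPINA1 a), 94847221 to 94847882 (b) and 94848999 to 94849864 (c). Region c had folds of 9.03 in WT Nutlin-3a, 5.86 with water, 8.83 with water and Nutlin-3a, and 7.96 with auxin. It had the highest −log10 q of the windows in WT Nutlin-3a (71.6, equal to that of H19), with water and Nutlin-3a (35.1) and with auxin (31.2), and ranked 60th of 1254, 43rd of 522 and 10th of 53 peaks there. Region b had folds of 7.58, 6.63, 6.28 and 4.95 in the same order of lists. Region a had folds of 7.08, 3.51, 6.84 and 6.63, and its −log10 q with water, 7.12, was the lowest of the windows in that list.

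HP encodes haptoglobin, which captures free haemoglobin. Its single region, chromosome 16, 72093906 to 72094690, had folds of 5.63 in WT Nutlin-3a, 8.02 with water, 6.57 with water and Nutlin-3a, and 4.12 with auxin. With water it was the strongest of all peaks in the windows, at a −log10 q of 24.7 and rank 59 of 463.

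Apolipoproteins carry lipids in plasma. APOA1, the main protein of high-density lipoprotein, had a region on chromosome 11, 116706536 to 116707498, with folds of 7.47 in WT Nutlin-3a, 4.33 with water, 7.01 with water and Nutlin-3a, and 6.63 with auxin. APOA4, a protein of chylomicrons in the same cluster, had one at 116691643 to 116692778, with folds of 6.64, 4.85, 4.50 and 4.98. One more peak, 116703094 to 116703650, lay between them and was listed in WT Nutlin-3a alone with a fold of 4.19. In RefSeq's gene order APOC3, an inhibitor of lipoprotein lipase, stands between APOA4 and APOA1.

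APOE, a ligand for the clearance of lipoprotein remnants, had a region on chromosome 19, 45411361 to 45412541. Its folds were 7.29 in WT Nutlin-3a, 5.01 with water, 6.51 with water and Nutlin-3a, and 5.39 with auxin. APOA2, the second protein of high-density lipoprotein, had a region on chromosome 1, 161192113 to 161193249. It had folds of 5.95 in WT Nutlin-3a, 4.55 with water and Nutlin-3a and 4.83 with auxin, and was not listed with water alone. The apolipoprotein regions other than the middle peak of the APOA4 to APOA1 window were therefore listed in 3 or 4 lists each.

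H19, a long noncoding RNA expressed from the maternal copy, had 1 broad peak in WT Nutlin-3a, chromosome 11, 2016509 to 2019279, with a fold of 9.03. With water the same stretch held 2 peaks with folds of 5.68 and 5.59, and with water and Nutlin-3a 2 with folds of 7.43 and 7.29. With auxin 1 was listed, 2017975 to 2019003, with a fold of 3.72 and the lowest −log10 q of the windows in that list, 6.45. The broad WT peak therefore covers the ground of 2 separate peaks in the edited line.

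IGF2, a fetal growth factor expressed from the paternal copy, was the exception among the windows. In WT DMSO it held a peak on chromosome 11, 2150903 to 2151514, with a fold of 2.78 and a −log10 q of 5.88, below the list's median of 9.34. In WT Nutlin-3a a peak of 4011 bp, 2150578 to 2154588, covered that place with a fold of 6.41, but its summit lay 2116 bp away from the DMSO summit. With water and Nutlin-3a there were 2 peaks, 2150636 to 2151285 (fold 3.92) and 2152948 to 2153814 (fold 6.03). IGF2 had none with water, with auxin, or with auxin and Nutlin-3a.

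**Figure D2:**
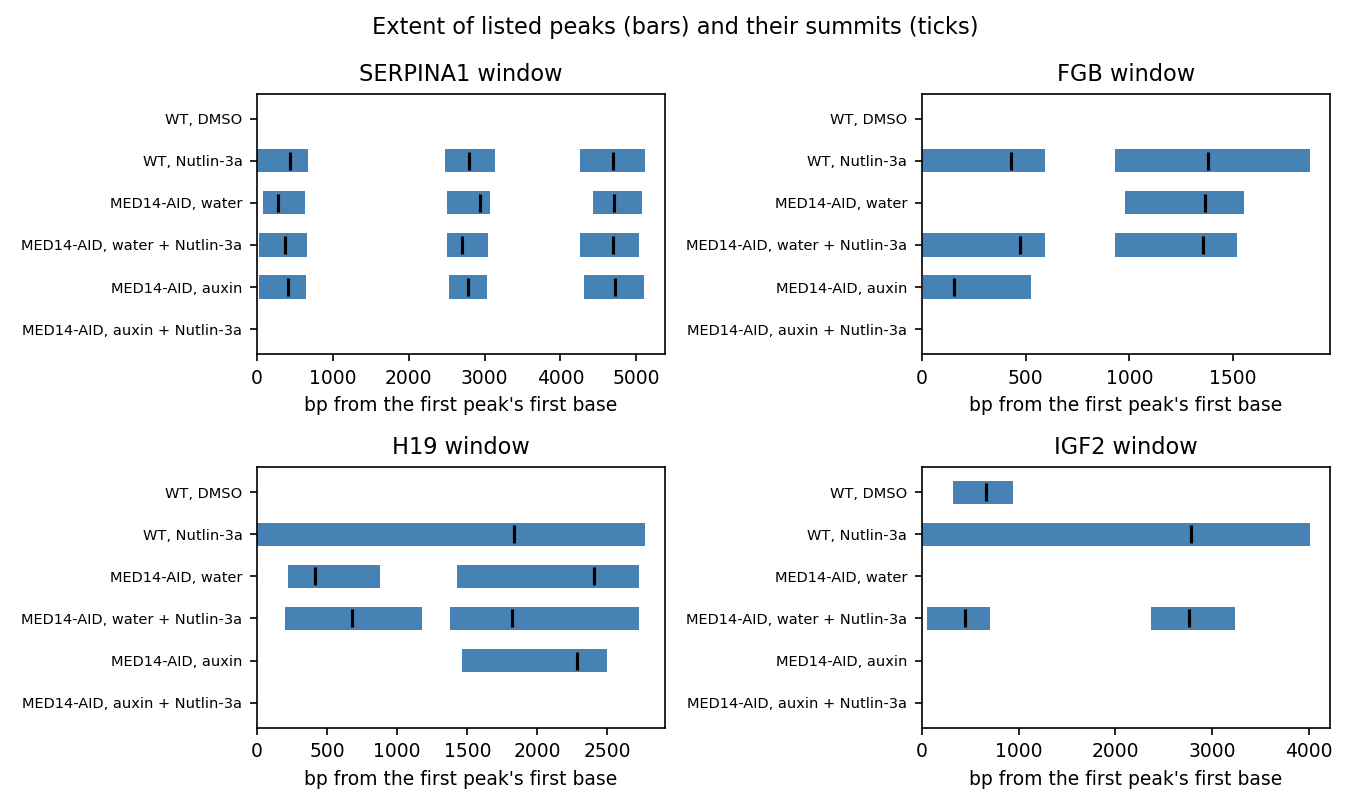
Extent of each listed peak (bars) and its summit (ticks) in the SERPINA1, FGB, H19 and IGF2 windows, in bp from the first base of the first peak, with 1 row per peak list. The 3 SERPINA1 bars recur at the same places in 4 lists, and the single broad H19 bar of WT Nutlin-3a (2771 bp) spans 2 bars in both water lists.

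The regions fell into 5 sets of lists. Of the 15, 8 were in WT Nutlin-3a, water, water with Nutlin-3a, and auxin: SERPINA1 a, b and c, APOA4, APOA1, APOE, HP and H19. Over the whole series 8 of 1584 regions had that set of lists, and they are these 8. ALB b, FGB a and APOA2 were in the same lists except water, and 3 of 1584 regions had that set. FGB b was in WT Nutlin-3a and both water lists, as were 11 of 1584 regions, IGF2 was in both WT lists and in water with Nutlin-3a (71 of 1584), and ALB a and the peak between APOA4 and APOA1 were in WT Nutlin-3a alone (384 of 1584). The windows were proposed after this distribution over the lists was known, so nothing follows from these counts about chance.

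Between the WT lists, 14 of 15 Nutlin-3a peaks in the windows overlapped no DMSO peak, as did 35.0% of all WT Nutlin-3a peaks. IGF2 was the one that did overlap. In the edited line without auxin, 5 of 15 Nutlin-3a peaks had no counterpart in the water list, at ALB b, FGB a, APOA2 and both IGF2 places, beside 31.2% of all peaks in that list. That share is close to the background. Under auxin the order was the other way round: all 11 peaks without Nutlin-3a overlapped no peak of the list with it, where 37.7% of all auxin peaks did. With 1 library behind each auxin list, Nutlin-3a, a difference between these libraries and an exchange of their labels cannot be told apart. With 1 list per condition, Nutlin-3a and a difference between libraries cannot be told apart in WT cells or with water either.

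For MED14 depletion, 8 of 10 water peaks in the windows overlapped an auxin peak, beside 9.50% of all water peaks. The remaining 2 were FGB b and the first of both H19 peaks. When peaks up to 1 kb apart counted as overlapping, 10 of 10 overlapped an auxin peak, and the share over all peaks at that setting was not counted. With Nutlin-3a, 0 of 15 water peaks overlapped an auxin peak, beside 9.0% of all. The windows held 11 of 53 peaks of the auxin list (20.8%), 10 of 463 with water (2.16%), 15 of 522 with water and Nutlin-3a (2.87%) and 15 of 1254 in WT Nutlin-3a (1.20%). These contrasts were in view when the windows were chosen, and nothing is read from them.

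Within their lists the peaks were strong in WT Nutlin-3a and middling with auxin. In WT Nutlin-3a their −log10 q ranged from 12.7 at ALB a to 71.6 at SERPINA1 c and H19, with a median of 38.7 against 11.4 for the list. All 15 were above the list's median, and 87.6% of its peaks were below the members' median. With water the range was 7.12 to 24.7 and the median 12.5, against 9.39 for the list. With water and Nutlin-3a it was 5.87 to 35.1 with a median of 19.9, against 9.84. With auxin it was 6.45 to 31.2 with a median of 12.1, against 13.0, and 4 of 11 were above the list's median. The lists differ in length and in median −log10 q, from 9.34 in WT DMSO to 13.7 with auxin and Nutlin-3a. Each standing therefore holds within its own list, and ranks are not compared between lists.

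**Figure D3:**
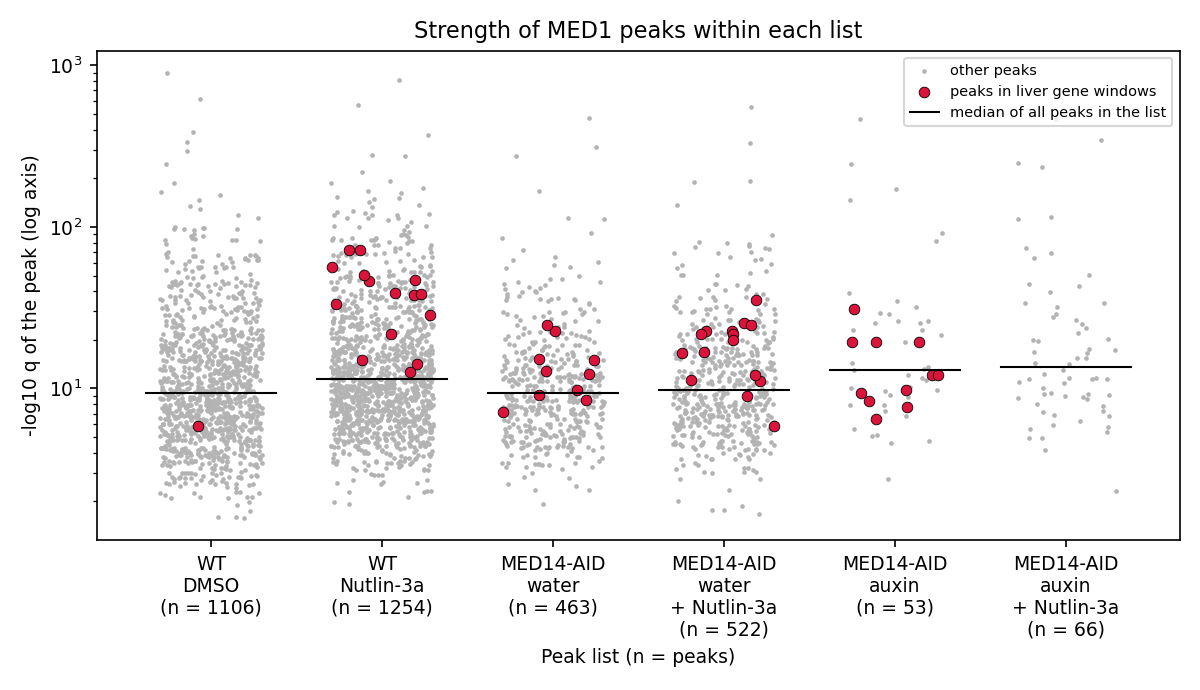
The −log10 q of each peak (log axis) in 6 peak lists, with peaks in the liver gene windows in red, other peaks in grey and the list's median as a black line. The 15 red points of WT Nutlin-3a all lie above its median of 11.4, the single red point of WT DMSO (5.88) lies below its median, and the list with auxin and Nutlin-3a has no red point.

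At some of the windows the places where peaks began recurred closely between lists, a measure that the choice of windows did not use but that was picked after its values were seen. HP began at 72093924 in WT Nutlin-3a, 72093906 with water, 72093926 with water and Nutlin-3a, and 72093924 with auxin, a range of 20 bp. FGB a began within 4 bp in its 3 lists and APOA2 within 5 bp in its 3. Elsewhere the starts spread more, over 176 bp at SERPINA1 c, 294 bp at APOA1, 325 bp at IGF2, 407 bp at APOE and 1466 bp at H19. For IGF2 and H19 these are the spreads over the 2 lists with a single peak. Between WT Nutlin-3a and MED14-AID with water and Nutlin-3a, 11 regions had 1 peak in each list, and their starts differed by a median of 4.00 bp. At 351 other peaks shared one to one by these lists the median was 179 bp. Starts lay within 25 bp of each other at 7 of the 11 and at 9.12% of the others. This pair showed the widest gap of the 6. In the other 5 pairs the share was 12.5 to 40.0% at the windows and 7.76 to 19.4% elsewhere. Between the water and the auxin list it was lower at the windows, at 1 of 8 (12.5%) against 19.4%. The median width in the windows was 865 bp against 818 bp for all WT Nutlin-3a peaks, and in the MED14-AID lists it was below that of all peaks (652 against 833 bp with water, 765 against 830 bp with Nutlin-3a after water, 577 against 663 bp with auxin). These widths are of all peaks in a list, and the widths of the other peaks shared one to one were not compared. The part of width in the differences between starts was not tested.

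By their medians, starts were closer at the windows than at other shared peaks in each of the 6 pairs of lists, with values of 4.00 to 86.0 bp against 102 to 179 bp. Ends were closer too, with medians of 27.0 to 113 bp against 99.5 to 206 bp. Summits were not: their medians were 31.0 to 150 bp at the windows and 31.5 to 99.5 bp elsewhere, with the windows closer in 2 of the 6 pairs. The summits of FGB a, for instance, spread over 317 bp while its starts stayed within 4 bp, and HP and SERPINA1 c kept theirs within 8 and 20 bp. The same regions enter several pairs and the libraries are shared, so no test was made.

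**Figure D4:**
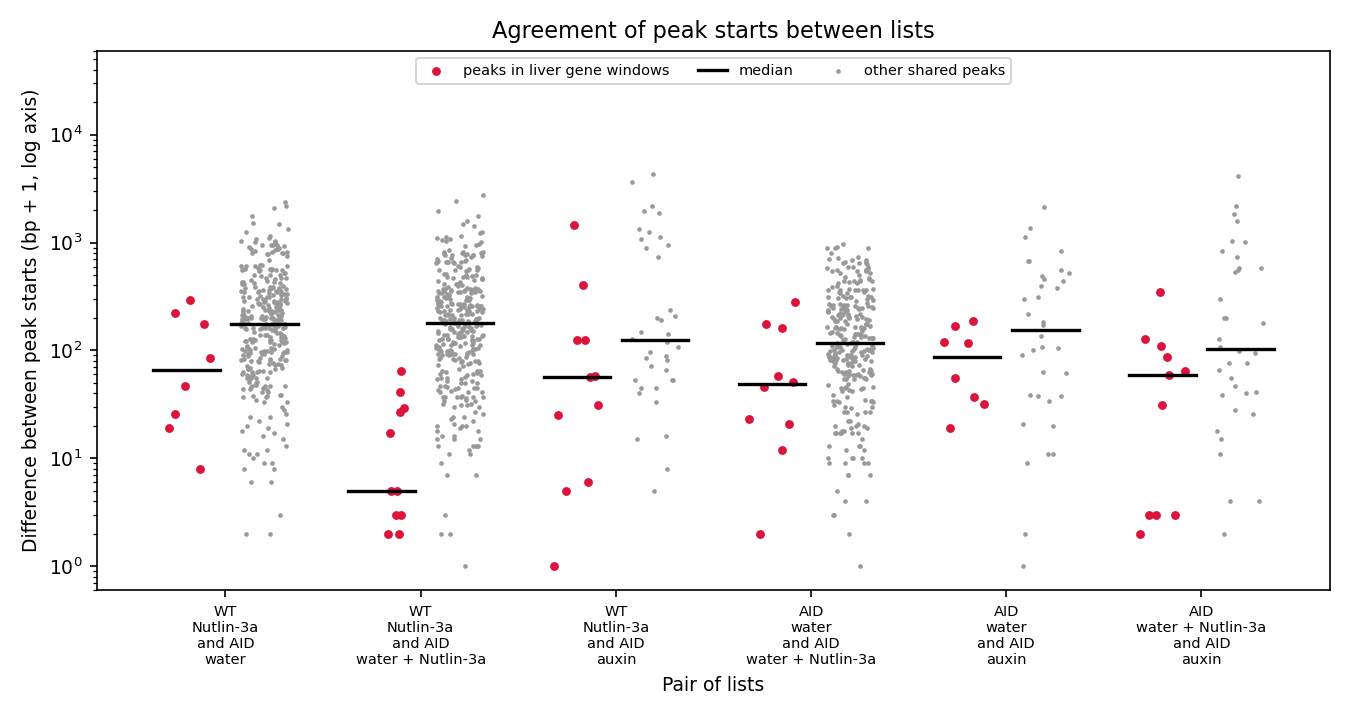
Difference in bp (plus 1, log axis) between the starts of overlapping peaks in 6 pairs of lists, for peaks in the liver gene windows (red) and other peaks shared one to one (grey), with medians as black lines. The red median is below the grey one in all 6 pairs and lowest, at 4.00 bp before adding 1, between WT Nutlin-3a and MED14-AID with water and Nutlin-3a.

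Regions differed in length relative to the genes that their windows are named after. The APOA2 region of 1137 bp compares with a RefSeq gene length of 1337 bp, the APOA4 region of 1136 bp with 2605 bp, and the APOA1 region of 963 bp with 1872 bp. These lengths are merged over the lists. Single peaks were 508 to 1137 bp wide at APOA2, 577 to 1132 bp at APOA4 and 630 to 963 bp at APOA1. At APOA2 only the WT Nutlin-3a peak had 1137 bp, beside 530 bp with water and Nutlin-3a and 508 bp with auxin. ALB a and b, at 506 and 576 bp, were short beside a gene of 17196 bp. Only lengths are compared here, since the gene table is of another build than the peaks, and how far a region overlaps its gene was not analysed here.

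The windows lay farther from other MED1 peaks than other groups of peaks did, by their medians. When peaks up to 50 kb apart were joined in WT Nutlin-3a, the 9 groups at the windows lay 131 to 8760 kb from the next group, with a median of 993 kb, against 429 kb for 643 other groups. The shortest distance, 131 kb, is that between H19 and IGF2 themselves. In the water list the medians were 3788 kb for 6 groups and 438 kb for 219 others. Where Nutlin-3a followed water they were 2530 kb for 9 and 587 kb for 243. With auxin they were 51662 kb for the 7 with another group on their chromosome and 19129 kb for 33 others. SERPINA1 was 2723 kb from the next group in WT Nutlin-3a and in both water lists.

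Within 100 kb outside the windows there was a single further place with peaks, next to FGB. It lay 6.65 to 7.49 kb beyond the window, in the direction of FGA, the fibrinogen alpha chain gene that follows FGB in RefSeq's order. In WT Nutlin-3a it spanned 155506736 to 155508377 of chromosome 4 with a fold of 6.83, more than either FGB region in that list. Its folds were 3.74 with water, 4.40 with water and Nutlin-3a, and 5.81 with auxin. It was also listed with auxin and Nutlin-3a, as a shorter peak of 529 bp with a fold of 4.18 and a −log10 q of 4.92, rank 63 of 66. This neighbour is thus the only place near a window with a peak in that list, and WT DMSO did not hold it.

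Other hepatocyte genes were looked up in hg19 windows placed by hand from general knowledge, without an hg19 annotation to check them. Of 19 (AFP, FGA, FGG, TTR, TF, AHSG, APOB, APOH, SERPINC1, AMBP, VTN, HPX, GC, CRP, F2, CPS1, C3, ORM1 and TAT), 0 held a peak in WT DMSO and 4 in WT Nutlin-3a. Each MED14-AID list held 1, the FGA place. The other 3 in WT Nutlin-3a were weak: AMBP, the alpha-1-microglobulin precursor, had a fold of 3.09 (−log10 q 7.25), the complement gene C3 3.17 (7.21) and APOB, the main protein of low-density lipoprotein, 2.27 (2.33). Their ranks were 928, 932 and 1248 of 1254. The albumin-family neighbour AFP and the transport protein genes TTR and TF held none in any list. The share of all genes with a peak in such windows was not counted, and the lists held between 53 and 1254 peaks. Whether these counts are many or few therefore cannot be said.

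Of 10 genes of colon epithelium placed in the same way (EPCAM, CDH1, KRT8, KRT18, KRT19, VIL1, CDX2, LGR5, EPHB2 and CD44), KRT8, KRT18 and KRT19 held peaks in both WT lists. KRT18, a simple-epithelium keratin, had a highest fold of 3.34 with DMSO and 4.95 with Nutlin-3a, where a further peak (fold 3.91) was listed. KRT8 had folds of 3.99 with DMSO and 3.97 with Nutlin-3a. The KRT19 peaks had folds of 3.40 and 2.62 with DMSO, and 3.23 and 3.92 at the same places with Nutlin-3a. KRT19 alone held a peak in both water lists, and none of the 10 did in either auxin list. The auxin lists held only 53 and 66 peaks, beside 463 and 522 in the water lists. Of all water peaks, 44 of 463 overlapped an auxin peak. Where both lists had Nutlin-3a, 47 of 522 did. The share of all genes with a peak in such windows was not counted, so nothing is read from the absence of KRT19 with auxin. Whether DNA of another cell type entered some libraries was not tested; reads and inputs were not used here.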

How the data were processed

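MED1 ChIP-seq was made from 16 samples, 8 MED1 libraries and 8 inputs. Bowtie 0.12.9, MACS2 2.1.2 and hg19 are named without settings in the submitters' processing notes. Per the labels, 1 list covers both MED1 libraries of each WT condition, and each MED14-AID list is of 1 library. Fold enrichment is the deposited ratio over background, −log10 q is deposited as the authors' caller gave it (the −log10 p is not used), and the deposited score repeats it (10 times, without decimals, in all 6 lists). Read depth is unknown, so values have no interval; a Wilson 95% interval over the peaks of a list served only to judge shifts of a percent between settings.

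Peaks were set in the windows by overlap of at least 1 bp and merged into regions. Members and lists were chosen with earlier results of these data known. Every named gene is a member, the peaks outside are all those within 100 kb, and of the other hepatocyte genes those with a peak are named. No test was made, since the lists give no replicates. Positions are 1-based. RefSeq tables of GRCh38.p14 gave symbols, gene order, gene lengths and promoters. Python 3.11.15, numpy 2.4.6, pandas 2.3.3 and matplotlib 3.10.9 were used. In 60 overlap counts checked with bedtools 2.31.1, 0 differed. Alternatives were −log10 q of at least 5 or 10, windows widened by 50 kb, no H19 and IGF2 windows, a gap of 1 kb, a reciprocal overlap of 50%, fold as strength, and 1 strand for motifs. Comparing starts and ends was added after the data were seen.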

Additional observations from a re-analysis of the deposited data

Results flagged for a closer look

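The lists labelled with Nutlin-3a held more regions of the windows than their partners without it in WT cells and with water, and fewer under auxin. That difference was not tested. Regions listed with Nutlin-3a minus those without numbered 14 in WT cells (15 against 1) and 4 in MED14-AID cells with water (13 against 9). Under auxin the difference was -11 (0 against 11), as the list with auxin and Nutlin-3a held no region of the windows. By peaks, 14 of 15 in WT cells and 5 of 15 with water were absent without Nutlin-3a, beside 35.0% and 31.2% of all peaks, so the count with water is near its background. All 11 auxin peaks were absent from the list with Nutlin-3a, beside 37.7% of all. Each count rests on 1 list per condition. Nutlin-3a therefore cannot be told apart from a difference between libraries in WT cells, with water or under auxin. For auxin, swapped labels cannot be told apart either.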

How the results depend on the processing

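Of 77 alternatives, 60 kept a count within 1.5 times the reported one, or a percent within its 95% counting interval, and 17 did not. Counts were judged without their totals. The cause of the shifts was not tested, except that a −log10 q limit leaves fewer peaks by construction. At a −log10 q of at least 10, regions numbered 0 in WT DMSO, 5 with water and 6 with auxin. All 6 auxin peaks left overlapped none with auxin and Nutlin-3a, and 2 of 6 water peaks overlapped an auxin peak. With water and Nutlin-3a, 7 of 13 peaks were then absent with water, against 5 of 15 as reported. The rule took this count as kept although its share rose, and the share over all peaks at that limit was not counted. Without the H19 and IGF2 windows WT DMSO held 0 regions, and 3 of 11 peaks with water and Nutlin-3a were absent with water. Windows widened by 50 kb took in the place near FGA, which gave 1 region with auxin and Nutlin-3a and 1 of 16 water peaks with Nutlin-3a that overlapped an auxin peak. Widened windows of other hepatocyte genes gave 2 in each MED14-AID list, since those of FGA and FGG then share peaks. By fold, 92.0% of WT Nutlin-3a peaks, 71.7% of water peaks and 83.7% of those with water and Nutlin-3a were below the members' median. On the gene strand alone, 0 of 11 promoters held the FOXA letters. Leaving out a replicate was not run, as each WT list joins its libraries. No paired analysis was possible because the numbered WT replicates share 1 list per condition.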
